A study of Mus musculus with 12 samples.

Results

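The cytosolic ribosomal protein genes, which encode the protein parts of the large and the small subunit of the ribosome outside mitochondria, were followed in RNA-seq counts from mouse hippocampus. Members were taken by name: protein-coding genes whose symbol is Rpl or Rps followed by a digit, together with Rplp0, Rplp1, Rplp2 and Rpsa, leaving out the Rps6k kinases and names marked as pseudogenes. This gave 85 of the 37991 genes in the count files, 51 named for the large subunit and 33 for the small subunit, plus Rps19bp1, which encodes a protein that binds Rps19 and is not itself part of the ribosome. The data came from 12 poly(A) libraries, 1 per mouse, 6 labelled Gadd45a-WT and 6 labelled Gadd45a-KO. All mice were of the C57BL/6N strain, were 6 to 7 months old per the labels, came from crosses of heterozygous parents, and were trained in passive avoidance, a test in which an animal learns to stay out of a compartment where it received a shock. Gadd45a-WT mice were wild-type siblings of the Gadd45a-/- mice, and hippocampi of both groups were taken 1 h after training, so no untrained group is part of the comparison. In Gadd45a-KO mice the first 3 exons of Gadd45a are replaced by a resistance cassette in every cell, and the last exon remains.

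Libraries held between 44594261 and 55540601 reads assigned to genes. Reads on Gadd45a itself went against the labels, at 2.19 to 3.43 CPM (counts per 1000000 reads) where the label was Gadd45a-WT, against 20.5 to 23.1 CPM where it was Gadd45a-KO. A count per gene does not say which exon the reads lie in, and since the last exon is outside the replaced part, this count does not check the genotype. The direction of every fold change below rests on the labels. All 6 of the hippocampal neuron markers looked up were read in every library, at a summed 6314 to 7788 CPM. A pair of libraries labelled Gadd45a-KO stood apart in other markers: the 6 thalamus markers summed to 307 CPM in replicate 2 and 452 CPM in replicate 3, against 89.6 to 132 CPM in the other libraries, and the 6 oligodendrocyte markers summed to 7311 CPM in replicate 3, against 2317 to 3738 CPM elsewhere. None of these markers was at 0 in any library.

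Cells build their ribosomes from largely the same set of proteins, each usually made from a single gene, although a few members have tissue-restricted relatives. Apart from the stalk proteins, each is needed in equal number, and most of the genes are strongly transcribed in all tissues. Their mRNAs begin with a run of pyrimidines, the terminal oligopyrimidine (TOP) tract, through which mTORC1 and its partner Larp1 control their translation together. In neurons, ribosomes in dendrites and axons make protein near synapses, and new protein is needed for lasting memory. A further property of the family matters for counting reads: mRNAs of ribosomal proteins have been copied back into the mammalian genome many times, leaving intronless processed pseudogenes that are nearly identical to the spliced mRNA. A short read from the mRNA then matches several places, and the counting program used for these files, htseq-count, sets aside any read that was aligned to more than 1 place.

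The first 30 coding bases of some members show how far this goes. They are spliced sequences from the GENCODE transcripts of build NCBIM37, and Rps6, Rps23 and Rps27 are shown because few reads were counted on them, and Rps27l, Rpl36a and Rpl36al because they are expressed close relatives. Capitals mark bases that differ between the paired relatives, Rps27 and Rps27l or Rpl36a and Rpl36al.
Rps6: atgaagctgaacatctccttccccgccacc
Rps23: atgggcaagtgtcgtggtctccgaactgcc
Rps27: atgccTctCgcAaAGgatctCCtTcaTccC
Rps27l: atgccCctGgcTaGAgatctGTtAcaCccT
Rpl36a: atggtGaacgtGccTaaaacccgCCggacA
Rpl36al: atggtCaacgtAccAaaaacccgAAggacT

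The stretch of Rps6 (gene at chr4:86500564-86503316, minus strand) was found unbroken at 7 other places of the genome and at 0 places within its own gene, where introns interrupt it. That of Rps23 (chr13:91062727-91064329, plus strand) lay at 6 other places, and that of Rps27 (chr3:90016593-90017573, minus strand) at 3. Rps27l (chr9:66793893-66797323, plus strand), a relative of Rps27, differs from it at 10 of these 30 bases and had 0 exact matches elsewhere. Rpl36al (chr12:70283718-70285070, minus strand) differs from Rpl36a (chrX:131120193-131122601, plus strand) at 6 of them, and each had 1 match outside its own gene.

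The same search was run over every 51-base window, the length of the reads, of each member's longest protein-coding transcript. A median of 49.1% of a member's windows occurred exactly at another place in the genome or in another gene's transcript, with a range of 0 to 99.7%. Within the coding part the median was 87.7%, and in 24 members every coding window occurred elsewhere. Copies that held 20 or more coding windows at up to 2 mismatches were found for 82 members, with a median of 12 copies and a highest number of 156 for Rpl7a. Rpl29 had 113, Rpl21 had 107 and Rps2 had 93. Among the largest shares of shared windows were those of Rps27 at 99.7%, Rps12 at 98.1%, Rps6 at 94.7% and Rpl23a at 94.5%. At the other end, Rps19bp1 and the tissue-restricted relatives Rpl3l and Rpl39l had none.

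Rpl24 also had 0% by that transcript, but the transcript is not its own. The annotation joins Rpl24 and its neighbour Zbtb11 into 1 gene (chr16:55966388-56009026, plus strand), and the longest transcript of the record encodes 3153 bases, whereas the short transcript at its start encodes 474. With the transcript tagged by the consensus coding sequence project (CCDS) in place of the longest, 85.2% of windows of Rpl24 occurred elsewhere, and the median over all 85 members was 59.6%. The transcript changed for 22 members, and Rpl39l, Rpl3l and Rps19bp1 were again among the lowest, at 0%. Counts given for Rpl24 are therefore those of a record that holds both genes.

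Together the members received between 0.338% and 0.394% of the reads assigned to genes. Within that small share, levels ran over several orders of magnitude. Rpl4, a large-subunit protein that lines the tunnel through which new protein leaves, had a mean of 21188 reads per library and 11.7% of all reads counted for the family, and the 5 members with most reads held 30.3%. Rps6, the small-subunit protein phosphorylated by S6 kinase downstream of mTORC1, had a mean of 60.6 reads, Rpl23a 41.3, Rps23, which sits at the decoding centre, 12.2, and Rps27 6.42, although these proteins are needed in equal number. Scaled for the length of the longest transcript, mean levels were highest for Rpl4 at 298 ± 13.1 CPM per kb (SD, n = 12), Rps21 at 252 ± 19.4, the stalk protein Rplp1 at 244 ± 38.4, Rps15 at 225 ± 14.2 and Rps29 at 223 ± 15.7. Rps21, Rplp1, Rps15 and Rps29 all overlapped within 1 SD. The lowest levels per length among tested members were 0.270 CPM per kb for Rpl3l, a relative of Rpl3 known from muscle, 0.448 for Rps23 and 1.38 for Rps6.

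**Figure D1:**
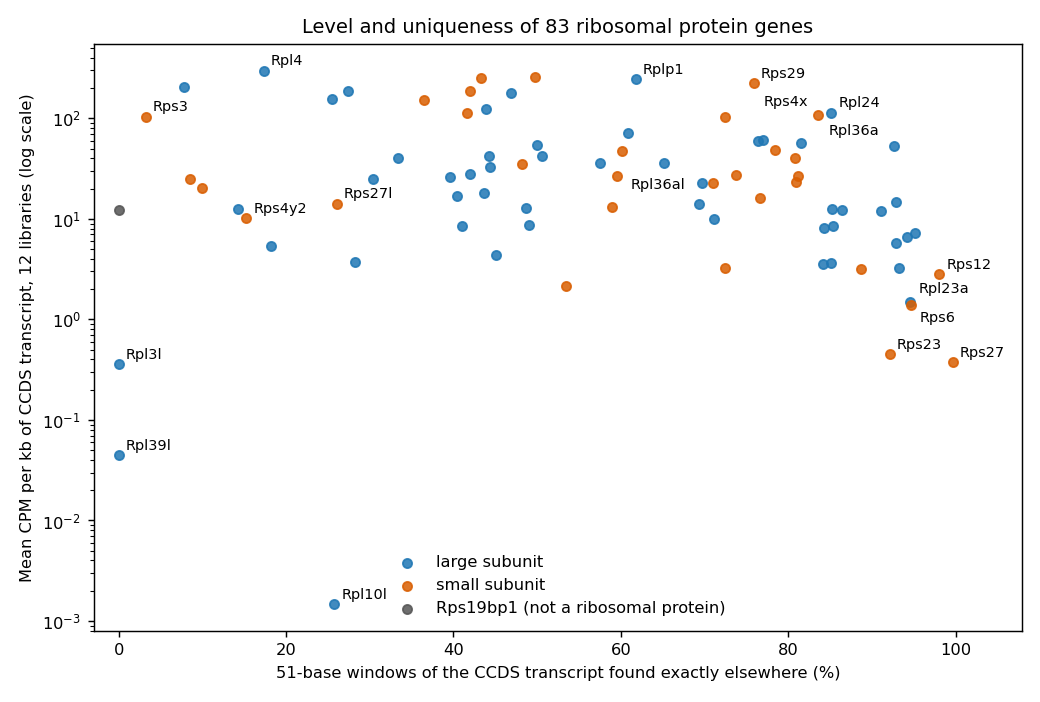
Each point is 1 of 83 of the 85 members, with the percent of 51-base windows of its CCDS transcript that occur exactly elsewhere on the horizontal axis and its mean level over 12 libraries in CPM per kb of that transcript on a log vertical axis, coloured by subunit. Rps27, Rps23, Rps6 and Rpl23a sit at the lower right with over 90% of windows shared, whereas Rpl36a lies at a similar share and a far higher level. Rpl39l and Rpl3l are low with 0% of windows shared, and Rpl10l is low with 25.7% shared.

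The median level was lowest among the members with the most shared windows, with many exceptions. By CCDS transcript, the 31 members with over 75% of windows elsewhere had a median of 12.1 CPM per kb, the 42 members between 25% and 75% had 30.1, and the 12 members under 25% had 16.5, the latter including the 3 tissue-restricted or unrelated genes at the left of the plot of level against uniqueness. Spearman's rho across the 85 genes was -0.26, a description only, since genes in 1 set of libraries share depth and base composition. By the longest transcript it was -0.19 with exact matches, or -0.32 with Rpl10l, Rpl39l, Rpl3l and Rps19bp1 left out. With up to 2 mismatches it was 0.01 across all 85 genes, so the relation depended on how a shared window was counted. Rps29 (75.9% shared, mean 4356 reads) shows that a high share did not always go with a low count. TopHat was allowed up to 5 alignments per read, and how it ranked a spliced match against an unspliced copy was not tested here. The files list alignments set aside as not unique at 15.3 to 17.3 per 100 gene reads in each library, without saying which genes they came from.

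Over the family as a whole, few reads were counted on the copies themselves. Reads aligned to more than 1 place were set aside for copies as well as for members. Such reads are in neither count, so the counts below do not say how many reads matched a copy. Records called pseudogenes here were those the annotation types so, and protein-coding ones with few exons named -ps or Gm and a number. In the annotation, 832 such pseudogenes could be matched by sequence to 77 members. They received a mean of 3328 reads per library in all, which is 1.83% of the 181381 reads on the members. The single pseudogene Gm8292, a copy of Rps24, held 1161 of them, whereas 511 of the 832 had a mean below 1 read. The part differed between members. Pseudogenes of Rps27 held a mean of 32.3 reads beside 6.42 on the gene, those of Rps23 7.83 beside 12.2, and those of Rps6 24.6 beside 60.6. Those of Rpl23, by contrast, held 1.08 reads beside 6533. Per 100 member reads the pseudogenes held 1.82 to 1.91 reads under the Gadd45a-WT label, compared with 1.76 to 1.85 under the Gadd45a-KO label, and the ranges overlapped.

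Of the 85 members, 82 passed the filter on low counts used for testing. The 3 that did not were Rps27, with 2 to 10 reads per library, Rpl39l, a testis-enriched relative of Rpl39, with 0 to 5 reads, and Rpl10l, the testis counterpart of X-linked Rpl10, with 0 or 1 read. The summed level of the members ran from 3457 through a median of 3600 to 3832 CPM in the 6 libraries labelled Gadd45a-WT. In the 6 labelled Gadd45a-KO it ran from 3484 through a median of 3619 to 3932 CPM. In whole hippocampus, fewer cells of a type and less RNA per cell cannot be told apart. The groups overlapped over nearly their whole range, with means of 3620 ± 149 (SD, n = 6) and 3647 ± 161 (SD, n = 6).

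No member passed the 1% false discovery rate (FDR) in edgeR's quasi-likelihood test, with 0 of 82 lower and 0 higher in libraries labelled Gadd45a-KO. Over all 16399 genes tested, 2.65% passed, 2.62% lower and 0.0244% higher, and a share near that background would amount to few members. At an unadjusted p under 0.05, 2 of 82 members passed in edgeR and 2 in DESeq2, against 13.7% of all genes in edgeR. The CPM of the groups did not overlap for 0 of 82 members, against 3.31% of all genes. The smallest adjusted p of a member was 0.28 in edgeR. The median log2 fold change of the members was 0.01, with 46 above 0 and 36 below, beside a median of 0.00 over all genes tested. The 49 tested large-subunit members had a median of 0.01 and the 32 tested small-subunit members also 0.01. With replicates 2 and 3 labelled Gadd45a-KO left out, 0 members passed and the median was 0.02.

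A p above the threshold does not show equal levels, and the intervals say how large a difference the libraries leave room for. Standard errors of the log2 fold change had a median of 0.06 and ran from 0.03 to 0.24. For 73 of the 82 members the unadjusted 95% interval lay within a 1.25-fold difference in either direction. The other 9 were Rpl29, Rps13, Rps6, Rpl3l, Rpl36, Rps12, Rpl23a, Rps19 and Rps23. Of these, 7 had a mean under 100 reads per library, the exceptions being Rpl29 and Rps19. The within-group SD of log2 CPM had a median of 0.10 and was lower in members with more reads (Spearman's rho -0.66 across 82 genes, a description).

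**Figure D2:**
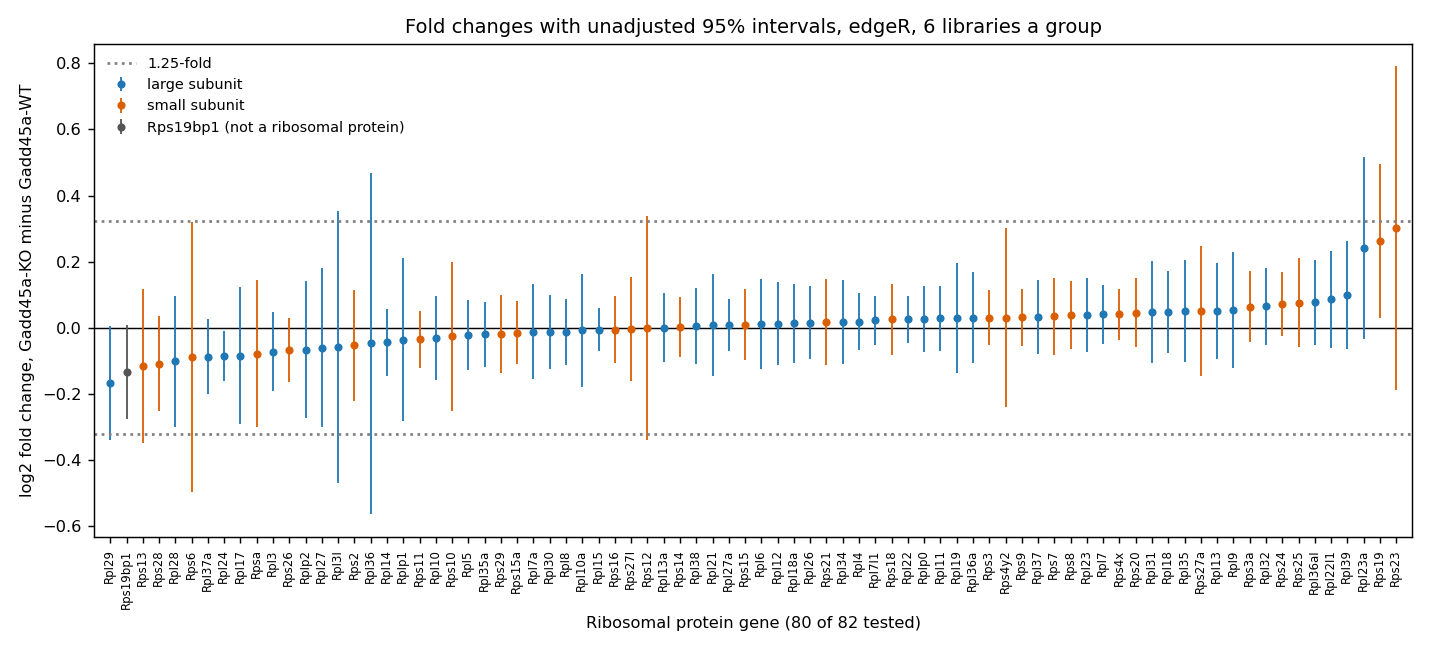
Points give the log2 fold change (Gadd45a-KO minus Gadd45a-WT) of 80 of the 82 tested members in order of size, bars the unadjusted 95% interval of the edgeR fit, and dotted lines a 1.25-fold difference. All but 2 intervals, those of Rpl24 and Rps19, contain 0, and the widest belong to members with few counted reads such as Rpl36 and Rps23.

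At the upper end stood Rps23, with 0.165, 0.204 and 0.334 CPM (lowest, median, highest) in libraries labelled Gadd45a-WT and 0.176, 0.247 and 0.392 CPM in those labelled Gadd45a-KO. The groups overlapped throughout, on 8 to 20 reads per library, and the log2 fold change of 0.30 had an SE of 0.23 (adjusted p = 0.65). Rps19, with the next largest value, is described further on. Rpl23a, a protein near the exit of the tunnel, had a log2 fold change of 0.24 (SE 0.13, adjusted p = 0.45, edgeR), from 0.588, 0.749 and 0.956 CPM to 0.802, 0.879 and 1.03 CPM on 32 to 53 reads. Rpl39, a very short protein of the tunnel, had a log2 fold change of 0.10 (SE 0.08), and its highest library, at 14.3 CPM, was replicate 6 labelled Gadd45a-KO. Rpl22l1, the relative of Rpl22, had 0.09 (SE 0.07). None of these passed the test.

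At the lower end, Rpl29 had 5.53, 6.45 and 7.94 CPM in libraries labelled Gadd45a-WT and 5.53, 5.86 and 6.36 CPM in those labelled Gadd45a-KO. The lowest values of both groups coincided, and the groups differed in their upper values, with a log2 fold change of -0.17 (SE 0.08, adjusted p = 0.39, edgeR). Rps19bp1 had -0.13 (SE 0.07, adjusted p = 0.40), Rps13 -0.12 (SE 0.11), Rps28 -0.11 (SE 0.07) and Rpl28 -0.10 (SE 0.09). The record named Rpl24 had 74.2, 79.1 and 84.1 CPM against 72.8, 74.98 and 77.7 CPM. Its log2 fold change of -0.08 (SE 0.04) had the smallest p of the family, with an adjusted p of 0.28 in edgeR and an exact two-sided permutation p of 0.026 (unadjusted, smallest possible 0.0022). As said above, its reads come from 2 genes, and which of them differs cannot be told from a count per record.

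Rps19, a small-subunit protein needed for maturation of the small-subunit rRNA and mutated in Diamond-Blackfan anaemia, fell into separate sets of libraries. Its levels in libraries labelled Gadd45a-WT were 22.3, 22.5, 22.03, 23.2, 29.3 and 29.7 CPM for replicates 1 to 6. In those labelled Gadd45a-KO they were 32.3, 21.8, 29.2, 30.4, 29.5 and 35.5 CPM. The values fell into a low set of 21.8 to 23.2 CPM, held by 4 libraries labelled Gadd45a-WT and 1 labelled Gadd45a-KO, and a high set of 29.2 to 35.5 CPM with the rest, and no library lay between. The log2 fold change was 0.26 (SE 0.11, adjusted p = 0.28, edgeR), with an exact two-sided permutation p of 0.097. Without replicate 2 labelled Gadd45a-KO it was 0.35 with an adjusted p of 0.046, still above the 1% threshold. Its pseudogene Rps19-ps3 held a mean of 68.3 reads beside 1367 reads on Rps19.

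**Figure D3:**
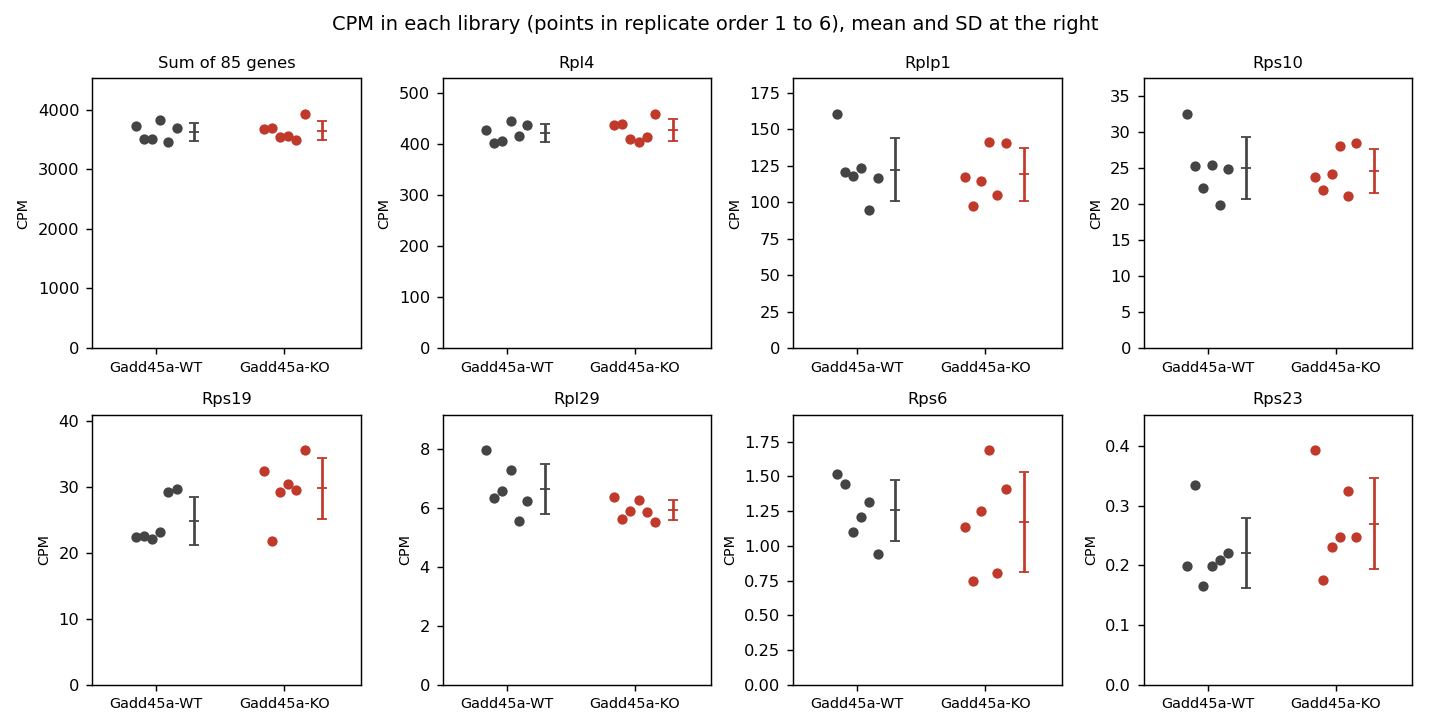
CPM in each of the 12 libraries for the sum of all 85 members and for 7 single members, with group mean and SD at the right of each group and every axis starting at 0. The summed level and Rpl4 differ little between libraries, Rps19 falls into a low and a high set, and Rplp1 and Rps10 are highest in replicate 1 labelled Gadd45a-WT.

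The acidic stalk proteins recruit elongation factors to the ribosome. Rplp0, their base on the large subunit, had 70.3, 71.2 and 79.3 CPM in libraries labelled Gadd45a-WT and 67.4, 74.6 and 81.6 CPM in those labelled Gadd45a-KO (log2 fold change 0.03, SE 0.05). Rplp1 ran from 94.5 to 161 CPM and from 97.1 to 141 CPM (log2 fold change -0.04, SE 0.12), and Rplp2 from 20.002 to 31.0 CPM and from 20.3 to 28.5 CPM (-0.07, SE 0.10). Rplp1 and Rplp2 thus varied more within a group than Rplp0. Rpsa, the laminin receptor precursor and a small-subunit protein, had a low count at 3.27 to 5.12 CPM and 3.53 to 4.35 CPM (-0.08, SE 0.10). Of its coding windows 99.8% occurred elsewhere, and of all its windows 53.5%, whose part in the low count was not tested.

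Rpl5 and Rpl11, which carry a ribosomal RNA into the large subunit and bind Mdm2 when assembly fails, had log2 fold changes of -0.02 (SE 0.05) and 0.03 (SE 0.05). Both were read at moderate levels, Rpl5 at 22.4 to 27.7 CPM and Rpl11 at 10.9 to 12.8 CPM over the 12 libraries. Rps6 ran from 0.939 to 1.52 CPM in libraries labelled Gadd45a-WT and from 0.747 to 1.69 CPM in those labelled Gadd45a-KO, with a log2 fold change of -0.09 and an SE of 0.19. Rpl13a, which is released from ribosomes to silence inflammatory mRNAs, was read at 149 to 181 CPM with a log2 fold change of 0.00 (SE 0.05). Rpl10, which joins late in assembly, had -0.03 (SE 0.06), and Rpl4 0.02 (SE 0.04).

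Several members have a relative in the same list, and each of the pair was counted apart. Rpl22 had 82.8 to 94.4 CPM and Rpl22l1 15.8 to 22.1 CPM over all libraries. Rpl36a had 22.8 to 31.3 CPM and its intronless relative Rpl36al 10.7 to 13.8 CPM, with log2 fold changes of 0.03 (SE 0.06) and 0.08 (SE 0.06). Rps4x, on the X chromosome, had 97.9 to 113 CPM, whereas Rps4y2, on chromosome 6, had 7.60 to 12.9 CPM. The first 30 coding bases of Rps4x and Rps4y2 are identical, and 83.6% of windows of Rps4x but 15.2% of those of Rps4y2 occurred elsewhere. Rpl7 had 75.5 to 90.7 CPM and Rpl7l1, a protein of early assembly, 30.4 to 34.0 CPM. Rps27l, known as a p53 target, had 6.17 to 8.16 CPM while Rps27 had 0.038 to 0.206 CPM, on 2 to 10 reads. Rpl3 had 14.6 to 18.5 CPM and Rpl3l 0.238 to 0.501 CPM. None of the tested members of these pairs passed the test.

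Members varied together from library to library. The mean pairwise correlation of their log2 CPM, after removing each group's mean, was 0.31 over 82 members and 12 libraries, beside 0.00 over all genes tested, 0.38 for 90 nuclear genes of oxidative phosphorylation, 0.33 for 39 proteasome genes and 0.18 for 75 mitochondrial ribosomal protein genes. These are descriptions, since all genes share the same libraries and their depth. The median member lay 0.12 above its own mean log2 CPM in replicate 6 labelled Gadd45a-KO and 0.08 above in replicate 4 labelled Gadd45a-WT. It lay 0.06 below in replicate 5 of both labels. Replicate 6 labelled Gadd45a-KO held the highest value of 28 of the 82 members, and 74 members lay above their mean there. That library also had the highest share of alignments set aside as not unique (17.3 per 100 gene reads) and of mitochondrial reads (8.51% of gene reads), whose part in the result was not tested.

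**Figure D4:**
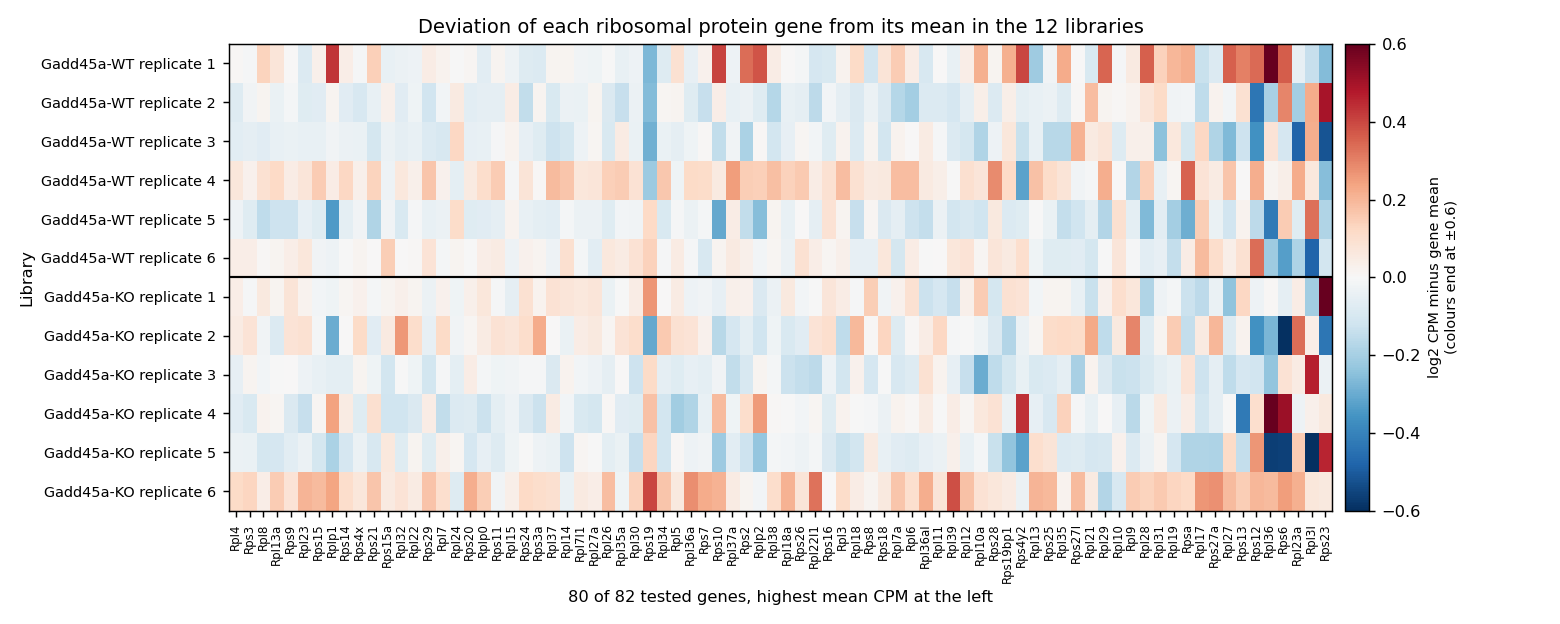
Rows are the 12 libraries and columns 80 of the 82 tested members from the highest mean CPM at the left to the lowest at the right, coloured by log2 CPM minus the gene's mean (red above, blue below, colours end at 0.6). Most members are red in replicate 6 labelled Gadd45a-KO and replicate 4 labelled Gadd45a-WT. Rplp1, Rps10, Rplp2, Rps4y2 and Rpl36 stand out in replicates 1 (Gadd45a-WT) and 4 (Gadd45a-KO).

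Another pattern over the libraries was seen in a few members. Rplp1 was highest in replicate 1 labelled Gadd45a-WT at 161 CPM, with 141 CPM in replicate 4 and 140 CPM in replicate 6 labelled Gadd45a-KO. Rps10 was highest in the same 3 libraries, with 32.6, 28.0 and 28.5 CPM, and Rplp2 had 31.0 CPM in the first and 28.5 CPM in the second. Rps4y2 had 12.6 and 12.9 CPM there, beside 7.60 to 10.2 CPM in the other libraries. Rpl36 had 2.31 and 2.08 CPM there, beside 0.845 to 1.42 CPM in the other libraries, on 39 to 105 reads per library. Both labels were represented among the high libraries. The pattern was not particular to ribosomal protein genes: of the 10 genes whose log2 CPM followed that of Rplp1 most closely over the 12 libraries, 9 were no members, led by 6030419C18Rik (r = 0.98), Junb (0.97) and Metrn (0.97), and Rps10 (0.96) was the only member.

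The transcription starts were read for the TOP tract that the family is known for. In the RefSeq promoter table (assembly GRCm38.p6), 63 of the 85 members had an entry, with 75 starts. A run of 8 or more C or T touching the 10 bases on either side of the start was present at 40% of the members' starts and at 13.7% of all 32851 starts in the table, a description of letters only. The following show 15 bases before and 15 from the start, with the run in capitals, chosen to show long runs and a member without one.
Rps6: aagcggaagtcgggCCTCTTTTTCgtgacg
Rpl15: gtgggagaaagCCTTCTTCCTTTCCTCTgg
Rpl7a: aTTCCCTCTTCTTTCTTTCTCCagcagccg
Rps10: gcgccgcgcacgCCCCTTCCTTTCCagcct
Rplp2: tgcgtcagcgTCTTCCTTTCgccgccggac
Rpl3l: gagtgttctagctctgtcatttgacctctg

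Each stretch was found once in or at the edge of its gene in NCBIM37: Rps6 at chr4:86503257-86503286 (minus strand), Rpl15 at chr14:19103486-19103515 (minus), Rpl7a at chr2:26766312-26766341 (plus), Rps10 at chr17:27772175-27772204 (minus) and Rplp2 at chr7:148633535-148633564 (plus). That of Rpl3l, without a run, lay at chr17:24864756-24864785 (plus). The run was 10 bases long in Rps6 and Rplp2, 13 in Rps10, 17 in Rpl15 and 21 in Rpl7a. Rpl3l, which lacks it, was the lowest tested member per length, at 0.270 CPM per kb of the longest transcript. Rpl22 stood at 42.8 CPM per kb of the longest transcript and 185 CPM per kb of the CCDS transcript. Its longest run was 5 bases at the RefSeq start, whose stretch lies at chr4:151698530-151698559 (plus). That is upstream of the gene in the annotation used here, which begins at chr4:151699851, so the annotated start was not read. Whether the run goes with the level was not tested.

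Genes that work with the ribosomal proteins were counted from lists of their own. Of the ribosomal proteins with other names, Gnb2l1 (Rack1) is a small-subunit scaffold. It had 143 CPM (mean, n = 6) in libraries labelled Gadd45a-WT and 144 CPM in those labelled Gadd45a-KO. Fau, which is made as a fusion to a ubiquitin-like protein, had 0.559 CPM in those labelled Gadd45a-WT. Windows of Gnb2l1 and Fau were not compared with the genome, so the part of shared sequence in these 2 counts was not tested. Neither passed 1% FDR, nor did any of the 15 records of the mTORC1 and Larp1 list (median log2 fold change -0.01), 14 translation factors with TOP mRNAs (0.01), 20 ribosome assembly genes (-0.01), 75 mitochondrial ribosomal proteins (0.02), 39 proteasome genes (0.03) or 90 nuclear genes of oxidative phosphorylation (0.02). Eef1a1, the factor that brings aminoacyl-tRNA to the ribosome, was read at 1058 and 1054 CPM, and Eef2, which moves the ribosome along, at 836 and 868 CPM. The gene of the mTORC1 list nearest the threshold was Rps6kb1, encoding S6 kinase, with a log2 fold change of -0.13 (SE 0.04, adjusted p = 0.044, edgeR). Mtor (-0.01, SE 0.04) and Larp1 (0.04, SE 0.03) did not pass.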

How the data were processed

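Per the submitters' notes and the study's methods, the authors prepared stranded poly(A) libraries, sequenced them as 51-base single reads, mapped them to NCBIM37 with TopHat 1.4.1 (up to 5 alignments per read, Ensembl 66 annotation) and deposited counts per gene from HTSeq 0.5.4p3 in reverse-stranded mode, 1 file per mouse. Gene symbols, positions and transcripts came from GENCODE for the same build (Ensembl 65), which held 37205 of the 37991 IDs. Groups were compared with edgeR 4.0.16 (TMM, filterByExpr, quasi-likelihood test, Benjamini-Hochberg over all 16399 genes, 1% FDR). DESeq2 1.42.0 was an alternative. Exact permutation tests used mean log2 CPM (prior count 2). CPM are counts per 1000000 reads of TMM-scaled libraries. Both fits were tested on simulated data. The members and lists were chosen with earlier results of these data known. Named members are those with the most extreme fold changes, levels or window shares, relatives, stalk proteins and members with known roles, by a fixed rule. A pair of members and 1 gene of a list are not reported here by name or in the plots of single genes. Windows were compared with the genome by exact match, both strands. That Rps10, Rpl36 and Rps6kb1 are named was decided after their values were seen, as were Rpl15, Rpl7a, Rps2, Zbtb11 and Gm8292. Totals of 44594261 to 55540601 counts per library make counting error small except in members with few reads.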

Additional observations from a re-analysis of the deposited data

Results flagged for a closer look

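In 6 of the 72 groups of 6 libraries looked at for named members and their sum, the highest library lay far from the other 5 relative to the group's range (Dixon's criterion, which chance alone would meet in about 1 of 20 groups, or 3.6 here). In replicate 4 labelled Gadd45a-WT, Rpl3 stood at 18.5 CPM (others 15.7 to 16.6), Rpl36a at 28.0 CPM (others 24.6 to 25.7) and Rpl7l1 at 34.0 CPM (others 31.6 to 32.2). The same library was among those with a high median over all members. Rpl39 stood at 14.3 CPM in replicate 6 labelled Gadd45a-KO (others 9.93 to 11.3). Rps23 stood at 0.334 CPM in replicate 2 labelled Gadd45a-WT (others 0.165 to 0.220), where its reads were few. Rps27l stood at 8.16 CPM in replicate 3 labelled Gadd45a-WT (others 6.502 to 7.10).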

How the results depend on the processing

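The counts of 0 members lower and 0 higher at 1% FDR held at 5% FDR with all libraries in the edgeR fit, and at 1% FDR under every alternative run: DESeq2, RLE size factors, TMM without the members, no filter, a minimum of 10 counts, offsets for transcript length or GC content, pseudogene reads added, the replicate block, each library left out, and replicates 2 and 3 labelled Gadd45a-KO left out together (chosen after seeing the data). At 5% FDR, Rps19 passed when replicate 2 labelled Gadd45a-KO was left out (adjusted p = 0.046, edgeR). The median log2 fold change stayed between -0.01 and 0.04, also with single libraries left out. The replicate numbers were not taken to pair mice: same-numbered libraries deviated together with correlations from -0.08 to 0.26 over all genes, and 1 of 6 correlated best with its own number. With the replicate block the median was 0.01 (log2), and Rps19 had 0.26. The median share of windows found elsewhere was 67.8% with up to 2 mismatches and 59.6% with CCDS transcripts. When the level was taken per kb of windows found at 1 place, rho between level and shared windows turned to 0.30, since that length is itself the unshared part.

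Of 35 named members, 20 kept their sign throughout 23 alternatives, and those that changed sign had a log2 fold change within 0.09 of 0. Rps12 was at 0.0048 with DESeq2 and RLE, 0.0062 without a filter, 0.0066 with the minimum of 10, 0.011 with the block, 0.021 with the length offset, 0.029 with both, 0.062 with pseudogene reads and 0.11 without the pair of libraries. Rps27l was at 0.0011, 0.0016, 0.0024, 0.0032, 0.0052 (length), 0.0061 (length with block), 0.044 (GC), 0.0040 (pseudogene reads) and 0.014 (without the pair). Rpl13a was at -0.013 (length), -0.014 (with block) and -0.024 (GC), and Rps29 at 0.014 in both length fits and 0.016 without the pair. Rpl5 was at 0.027 and Rps21 at -0.0068 with GC, and Rps6 at 0.0042 with pseudogene reads and 0.013 without the pair. Without the pair, Rpl11 was at -0.00035 and Rplp1 at 0.042. With single libraries left out, values spanned -0.022 to 0.033 (Rpl13a), -0.018 to 0.075 (Rpl36a), -0.17 to 0.044 (Rpl3l), -0.033 to 0.022 (Rpl5), -0.092 to 0.067 (Rplp1), -0.12 to 0.0204 (Rplp2), -0.067 to 0.079 (Rps12), -0.02004 to 0.0496 (Rps15), -0.0076 to 0.058 (Rps21), -0.036 to 0.048 (Rps27l), -0.047 to 0.022 (Rps29), -0.058 to 0.13 (Rps4y2), -0.21 to 0.018 (Rps6) and -0.13 to 0.00066 (Rpsa). The cause was not tested. Calls over all genes moved from 434 to 202 without the pair, 256 with the length offset, 678 with DESeq2 and 242 to 470 with single libraries left out. The GC offset covered 90.9% of genes tested. Depth limits the members with few reads, such as Rps23, Rps27, Rpl23a and Rps6.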

Other observations

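The 20 genes whose log2 CPM followed that of Rps19 most closely, in either direction, over the 12 libraries were listed after the uneven values of Rps19 had been seen. Rps19 lies on chromosome 7, and so do 5 of these 20, whereas 7.59% of all genes tested do. They are Abcc6 (chr7:53231750-53285672) with r = 0.91, Ceacam1 (chr7:26246721-26262644) with 0.85 and Dll3 (chr7:29076673-29087257) with 0.83 in the same direction, and Ceacam2 (chr7:26301061-26325023) with -0.90 and Ccne1 (chr7:38883003-38892553) with -0.81 in the opposite direction. These are extremes picked from 16399 genes in libraries that fall into a low and a high set, so no test is given.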
